A study of Mus musculus with 10 samples.

Results

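The genes described here make cholesterol and sense its level: 28 mouse genes, chosen by name from the 54446 gene rows of the count table. They comprise 8 enzymes that lead from acetyl-CoA to farnesyl and geranylgeranyl diphosphate, 11 enzymes that lead from there to cholesterol, and 9 genes of sterol sensing, traffic and storage. All 28 were among the 15181 genes kept by the low-count filter, with 37 to 10155 counts behind a value in 1 library. Messenger RNA was sequenced from primary smooth muscle cells of the mouse aorta, 5 libraries from Kit W/Wv compound mutant mice (WWv) and 5 from wild type mice (WT). The cells were isolated with collagenase and used at passage 2, so both groups are cultured cells, and the Kit alleles were present in every tissue of the WWv animals. The protocol names 5 mice of each genotype, but no label ties a library to a mouse, so p-values measure the spread between these libraries. The labels give no mouse age, sex or strain.

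Cholesterol is built from acetyl-CoA through mevalonate and farnesyl diphosphate. Squalene synthase commits farnesyl diphosphate to sterols, and the same intermediate also feeds dolichol, coenzyme Q and the prenyl anchors of proteins. Transcription of the enzymes is driven by SREBP2, the product of Srebf2. Scap escorts SREBP2 from the endoplasmic reticulum to the Golgi when sterols are low, and the Insig proteins hold Scap back when sterols are plentiful. Smooth muscle cells of the artery wall make their own sterol, take it up from lipoproteins and can store it as ester.

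Library totals ranged from 43455518 to 53863661 counts in WWv and from 42040255 to 51309067 in WT. Kit, the mutated gene, averaged 2.00 ± 0.764 CPM (counts scaled to library size) in WWv and 4.12 ± 0.629 CPM in WT (SD, n = 5 each), with no overlap between the groups (edgeR adjusted p = 0.0122). Summed over 6 smooth muscle markers the level was 16748 to 20129 CPM in WWv and 9941 to 13003 CPM in WT. Endothelial markers summed to 64.1 to 153 CPM in WWv and 43.0 to 226 CPM in WT, fibroblast markers to 406 to 697 CPM in WWv and 409 to 924 CPM in WT, and macrophage markers to 20.7 to 25.6 CPM in WWv and 20.4 to 40.7 CPM in WT. Without WT 2 the WT sums were 43.0 to 67.4 CPM for endothelial, 685 to 924 CPM for fibroblast and 27.4 to 40.7 CPM for macrophage markers. At an edgeR adjusted p under 0.05, 5 of the 6 smooth muscle markers were higher in WWv, with and without WT 2. Of 5 fibroblast markers 3 were lower in WWv, and 4 without WT 2. Of 5 endothelial markers none was called by edgeR, at an unadjusted p under 0.05 either, and 3 were higher without WT 2. Of all genes tested 15.4% were lower and 12.8% higher, and without WT 2 23.5% were lower and 22.7% higher. The part of these markers in the results was not tested. The 4 adipocyte, 3 lymphocyte and 3 mast cell markers were too low to be tested. Library WT 2 stood apart from the other WT libraries: its mean log2 CPM over 28 cell cycle genes was 5.45, against 5.24 to 5.44 in WWv and 4.72 to 4.90 in the other 4 WT libraries. Counts of changed genes are therefore also given without it where it alters them.

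Of the 28 genes 10 fell and 1 rose in WWv at an adjusted p under 0.05, while 17 did not pass the test. The 10 were the enzyme genes Hmgcs1, Pmvk, Fdps, Fdft1, Lss, Cyp51, Msmo1 and Nsdhl and the regulators Srebf2 and Scap, between 1.10-fold and 1.93-fold lower. The 1 that rose was Npc1, which exports cholesterol from lysosomes. Lower calls thus made up 35.7% of the 28 genes, against 15.4% of all genes tested, and higher calls made up 12.8% of all genes. The median log2 fold change (WWv over WT) was −0.25 over the 28 genes and −0.01 over all genes tested, and 25 of the 28 estimates lay below 0. In 6 of the 28 all WWv libraries lay below all WT libraries, as in 7.84% of all genes, and in 1 they lay above, as in 8.03%. Without WT 2 there were 17 lower and 2 higher genes, against 23.5% lower and 22.7% higher of all genes in that fit. With the cell cycle level of each library as a covariate edgeR called 0 of the 28 lower and 1 higher, with 3 lower at an unadjusted p under 0.05. That fit called 3.97% of all genes lower and 5.33% higher, and no other tool was run with the covariate.

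**Figure D1:**
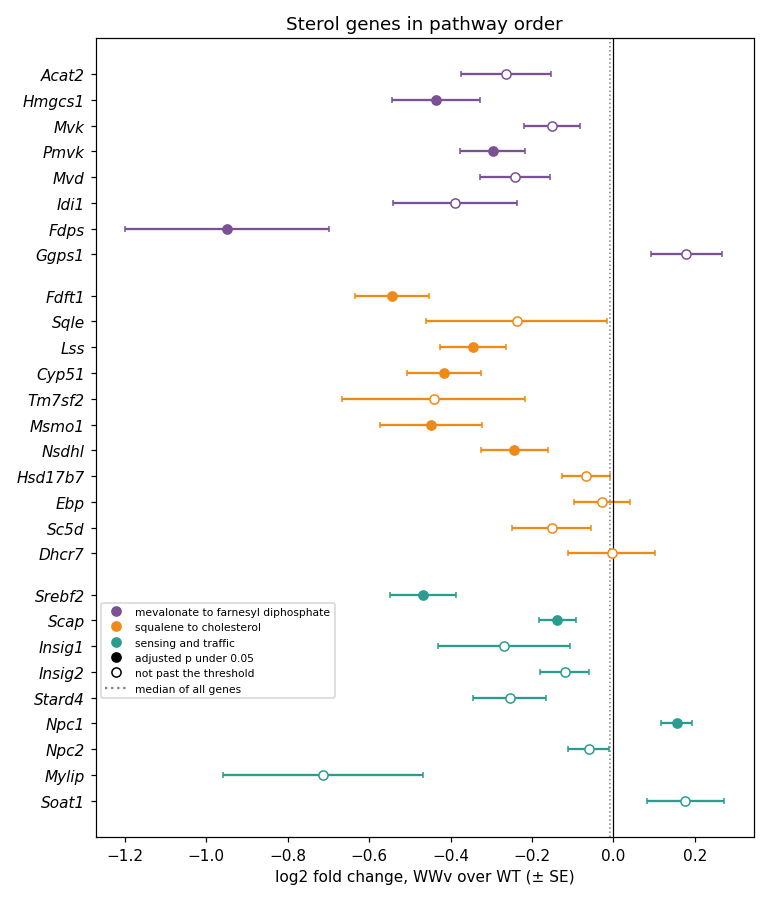
Change of the 28 genes in pathway order. Points give the log2 fold change (WWv over WT) and bars its standard error (n = 5 libraries per group), filled where the edgeR adjusted p was under 0.05; the dotted line is the median of all genes, −0.01. Most points lie left of 0, with Fdps farthest at −0.95 and Ggps1, Npc1 and Soat1 to the right.

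Promoter sequences are shown for the 4 genes that fell, have a RefSeq promoter entry and come first by the naming rule, because the fallen enzymes are textbook SREBP2 targets and the known partners of SREBP2 at promoters bind the CCAAT box and the Sp1 box. Each runs 5′ to 3′ from 250 bases before to 50 bases after the RefSeq start site, on GRCm38.p6. Capitals mark matches to the sterol regulatory element, searched as TCACNCCAC, and to the CCAAT box, searched as CCAAT, each on either strand.
Hmgcs1 promoter, chr13:119690101-119690400, plus strand: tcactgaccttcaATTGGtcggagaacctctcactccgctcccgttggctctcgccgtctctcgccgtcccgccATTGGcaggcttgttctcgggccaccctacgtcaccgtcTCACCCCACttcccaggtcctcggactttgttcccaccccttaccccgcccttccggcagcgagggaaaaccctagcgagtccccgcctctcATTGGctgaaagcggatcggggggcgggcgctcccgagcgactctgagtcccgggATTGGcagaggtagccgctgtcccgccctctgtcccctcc
Srebf2 promoter, chr15:82147019-82147318, plus strand: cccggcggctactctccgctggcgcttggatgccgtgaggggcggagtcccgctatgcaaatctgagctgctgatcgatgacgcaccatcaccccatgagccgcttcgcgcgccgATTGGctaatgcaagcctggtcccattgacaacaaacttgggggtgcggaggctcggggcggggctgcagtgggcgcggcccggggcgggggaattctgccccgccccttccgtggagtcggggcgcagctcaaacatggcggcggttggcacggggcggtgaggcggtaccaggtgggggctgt
Msmo1 promoter, chr8:64733529-64733828, minus strand: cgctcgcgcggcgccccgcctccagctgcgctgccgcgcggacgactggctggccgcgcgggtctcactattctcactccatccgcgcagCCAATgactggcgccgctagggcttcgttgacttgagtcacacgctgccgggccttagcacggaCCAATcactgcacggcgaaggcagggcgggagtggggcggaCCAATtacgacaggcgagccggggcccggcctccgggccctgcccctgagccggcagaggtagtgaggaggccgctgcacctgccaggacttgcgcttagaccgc
Cyp51 promoter, chr5:4104648-4104947, minus strand: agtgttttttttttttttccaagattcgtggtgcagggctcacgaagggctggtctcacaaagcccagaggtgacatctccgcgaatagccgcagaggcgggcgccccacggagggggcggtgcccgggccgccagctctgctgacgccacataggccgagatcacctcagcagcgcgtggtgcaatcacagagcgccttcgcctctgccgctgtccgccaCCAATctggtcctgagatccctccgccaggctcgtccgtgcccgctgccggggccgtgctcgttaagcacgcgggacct

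The Hmgcs1 promoter, of the cytosolic HMG-CoA synthase gene, held the only sterol regulatory element of this spelling, with its first base 137 bases before the start site, and 4 CCAAT boxes. Of the 28 genes 23 had an entry in the RefSeq table; Fdps, Fdft1, Sqle, Stard4 and Npc1 had none. The element was found in 1 of the 23, that is in 1 of their 29 promoters (3.45%), and in 1.24% of all 32851 promoters of this length. A shorter form of it, TCACNCCA, was chosen after the promoters had been seen. It was found in 3 of the 29 (10.3%), those of Hmgcs1, Msmo1 and Srebf2, and in 4.36% of all promoters. The CCAAT box was found in 21 of the 23 genes, that is in 21 of their 29 promoters (72.4%), and in 37.4% of all promoters. The Sp1 box, searched as GGGCGG on both strands, was found in 24 of the 29 (82.8%) and in 35.7% of all. The palindrome CACGTG, the E-box, was found in 6 of the 29 (20.7%) and in 7.15% of all. None of these motifs overlaps another in spelling except that TCACNCCA lies within TCACNCCAC. A match is only a description of these letters, and genes that changed and genes that did not pass both held CCAAT boxes.

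The first enzymes of the pathway make mevalonate. Acat2, the cytosolic thiolase that joins acetyl-CoA units, had 9.27, 10.3, 8.42, 10.6 and 9.17 CPM in WWv 1 to 5, against 10.2, 13.2, 9.44, 13.5 and 11.0 CPM in WT 1 to 5. It did not pass the test (log2 fold change −0.26 ± 0.11 SE, edgeR adjusted p = 0.0953). Its reads are also the least certain of the set, since 39.1% of the 50-base stretches of its transcripts occur in another annotated gene, Acat3 or Tcp1. Hmgcs1, on chromosome 13 (119690379 to 119708260), had 49.2, 49.1, 39.6, 42.9 and 50.7 CPM in WWv, against 65.6, 52.8, 53.99, 76.5 and 64.1 CPM in WT. The groups did not overlap, although WT 2 and WT 3 lay close above the highest WWv library. Hmgcs1 was 1.35-fold lower in WWv (−0.43 ± 0.11, edgeR adjusted p = 0.0135).

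Mevalonate is phosphorylated and decarboxylated by the products of Mvk, Pmvk and Mvd. Pmvk, phosphomevalonate kinase, had 7.40, 7.11, 6.98, 6.07 and 7.06 CPM in WWv, against 9.18, 7.85, 7.80, 9.01 and 8.68 CPM in WT, with no overlap. It was 1.23-fold lower (−0.30 ± 0.08, edgeR adjusted p = 0.0189; adjusted p = 0.0511 with a replicate block). Mvk, mevalonate kinase, averaged 19.1 ± 1.17 CPM in WWv and 21.2 ± 1.80 CPM in WT and did not pass (−0.15 ± 0.07, adjusted p = 0.12). Mvd, the decarboxylase, averaged 8.91 ± 0.605 CPM in WWv and 10.5 ± 1.10 CPM in WT and missed the threshold (−0.24 ± 0.08, adjusted p = 0.0544); without WT 2 it passed (−0.27, adjusted p = 0.0234).

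The isoprene units are then isomerised by the Idi1 product and joined by those of Fdps and Ggps1. Fdps, farnesyl diphosphate synthase on chromosome 3 (89093588 to 89101959), had 1.60, 1.49, 0.890, 1.10 and 1.72 CPM in WWv, against 2.84, 1.42, 2.40, 3.26 and 3.22 CPM in WT. WT 2 lay within the WWv range and the other 4 WT libraries lay above it. The gene was 1.93-fold lower (−0.95 ± 0.25, edgeR adjusted p = 0.0175), the largest estimate among the 28. Of its 4208 exon bases 1124 lie under a coding gene on the same strand, Gm43738, and 26.2% of its 50-base stretches occur in that gene or in 7 others, so its reads are uncertain. Idi1 averaged 4.05 ± 0.404 CPM in WWv and 5.30 ± 1.17 CPM in WT and did not pass (−0.39 ± 0.15, edgeR adjusted p = 0.0773; −0.48 and 0.012 without WT 2), and 25.3% of its 50-base stretches are shared. Ggps1, which makes geranylgeranyl diphosphate for protein prenylation, was the 1 enzyme with an estimate above 0, at 46.1 ± 2.21 CPM in WWv and 40.7 ± 5.40 CPM in WT (0.18 ± 0.09, adjusted p = 0.148).

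Squalene synthase, encoded by Fdft1 on chromosome 14 (63145150 to 63179578), carries out the first step that serves sterols alone. Fdft1 had 26.5, 25.9, 21.6, 25.3 and 25.0 CPM in WWv, against 37.6, 29.9, 33.2, 41.6 and 39.0 CPM in WT. The highest WWv value was still under the lowest WT value, that of WT 2, and Fdft1 was 1.46-fold lower (−0.54 ± 0.09, edgeR adjusted p = 0.00233), the smallest adjusted p among the 28. Ctsb, the cathepsin B gene, covers 774 of the 4227 exon bases of Fdft1 on the opposite strand. Of the 50-base stretches of Fdft1 26.5% occur in Ctsb or Gm6781, so its reads are uncertain as well. Ctsb averaged 349 ± 5.14 CPM in WWv and 425 ± 21.8 CPM in WT (−0.28 ± 0.05, adjusted p = 0.00201), and the share of its reads counted to Fdft1 was not tested. Sqle, squalene epoxidase, is regarded as a rate-limiting step. Its levels were widely spread, at 49.3, 65.8, 54.01, 62.9 and 78.7 CPM in WWv against 84.2, 38.1, 63.6, 101 and 79.2 CPM in WT. WT 2 was the lowest and WT 4 the highest of all 10 libraries, and Sqle did not pass (−0.24 ± 0.22, edgeR adjusted p = 0.445). Without WT 2 it passed (−0.40, edgeR adjusted p = 0.0451), and over the 10 fits that left out 1 library the estimate ran from −0.40 to −0.092.

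Lanosterol synthase, the product of Lss on chromosome 10 (76531588 to 76557138), closes the sterol rings. Lss had 19.9, 19.2, 18.3, 17.9 and 20.3 CPM in WWv, against 23.2, 21.1, 23.0, 29.0 and 24.9 CPM in WT, with no overlap (1.27-fold lower, −0.35 ± 0.08, edgeR adjusted p = 0.0108). Cyp51, the lanosterol demethylase on chromosome 5 (4081145 to 4104746), also separated the groups. It had 49.0, 48.0, 41.0, 44.0 and 50.3 CPM in WWv, against 65.6, 52.3, 56.1, 72.5 and 63.4 CPM in WT. Cyp51 was 1.33-fold lower (−0.42 ± 0.09, edgeR adjusted p = 0.00782).

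The C4 methyl groups of the sterol are removed by the products of Msmo1, Nsdhl and Hsd17b7. Msmo1, the methyl sterol oxidase gene on chromosome 8 (64718139 to 64733792), had 31.1, 30.4, 23.7, 28.8 and 32.1 CPM in WWv, against 45.2, 31.3, 35.5, 49.2 and 38.0 CPM in WT. Only WT 2 fell within the WWv range (1.36-fold lower, −0.45 ± 0.12, edgeR adjusted p = 0.0217). Msmo1 lost its call without WT 1 (−0.40, edgeR adjusted p = 0.0553).

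Nsdhl, the sterol dehydrogenase gene on chromosome X (72918557 to 72958514), had 20.3, 22.1, 20.1, 24.5 and 21.3 CPM in WWv, against 27.1, 22.8, 23.5, 29.7 and 25.1 CPM in WT. WT 2 and WT 3 lay within the WWv range. The gene was 1.18-fold lower, close to the threshold (−0.24 ± 0.08, edgeR adjusted p = 0.0469), and kept its call in 2 of the 10 fits that left out 1 library each. Of the remaining sterol enzymes, Tm7sf2, a sterol C14 reductase, averaged 2.37 ± 0.563 CPM in WWv and 3.23 ± 0.870 CPM in WT and did not pass (−0.44 ± 0.23, edgeR adjusted p = 0.164). Hsd17b7, the ketosteroid reductase of C4 demethylation, Ebp, the sterol isomerase, and Sc5d and Dhcr7, the last desaturase and a terminal reductase, had log2 fold changes of −0.07, −0.03, −0.15 and −0.0039, none past the test. Without WT 2 Tm7sf2 passed (−0.58, edgeR adjusted p = 0.0178), as did Sc5d (−0.22, edgeR adjusted p = 0.034). Within this branch the estimates therefore differed in size, with 5 of the 11 genes lower and a median of −0.24. Among the 8 genes up to the prenyl diphosphates 3 were lower, with a median of −0.28. Of all genes tested 15.4% were lower. Without WT 2 the counts of lower genes were 8 of the 11 and 5 of the 8, against 23.5% of all genes in that fit. Over all 10 libraries and without the covariate, no enzyme gene was higher by edgeR, limma-voom or DESeq2. At an unadjusted p under 0.05 in edgeR none was higher either, except 1 with no low-count filter.

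**Figure D2:**
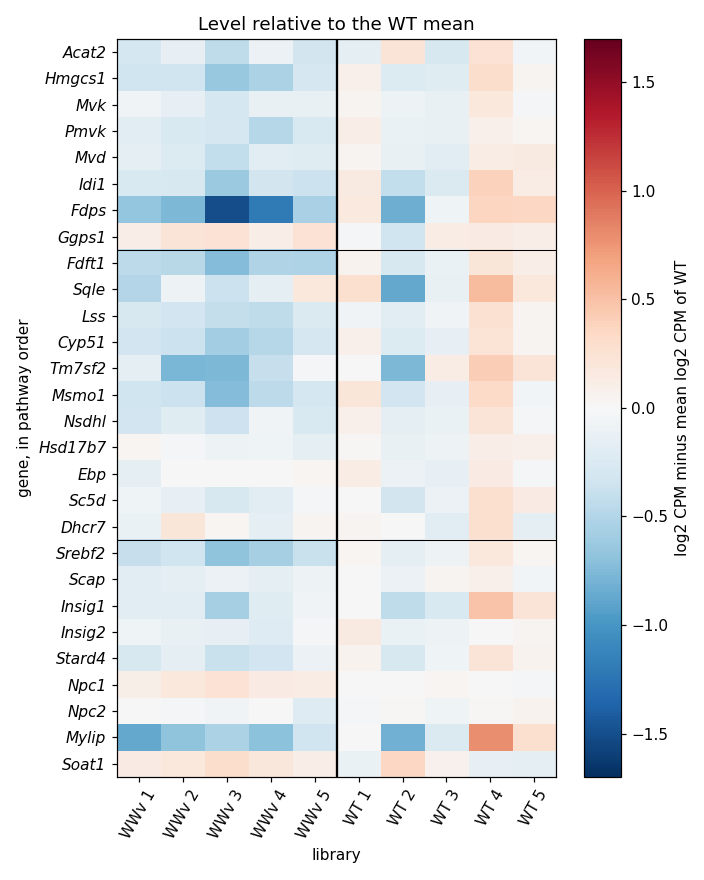
Level of each of the 28 genes in every library, as log2 CPM minus the mean log2 CPM of that gene in WT, WWv left of WT. Among the WT columns WT 4 is the highest library for 22 genes and WT 2 the lowest for 19.

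The gene of the sterol-regulated transcription factor was lower in WWv. Srebf2, encoding SREBP2, had 91.6, 94.8, 74.9, 81.3 and 92.4 CPM in WWv, against 123, 107, 113, 136 and 122 CPM in WT. The groups did not overlap, and the highest WWv library was still below WT 2. Srebf2, on chromosome 15 (82147181 to 82205379), was 1.38-fold lower (−0.47 ± 0.08, edgeR adjusted p = 0.00271). Scap, the SREBP escort gene on chromosome 9, had 81.9, 84.2, 87.4, 83.2 and 87.8 CPM in WWv, against 93.9, 87.0, 96.3, 99.3 and 90.6 CPM in WT. Only WT 2 lay within the WWv range, and the difference was small (1.10-fold lower, −0.14 ± 0.05, edgeR adjusted p = 0.0438). Scap kept its call in 2 of the 10 fits that left out 1 library each. The Insig genes did not pass: Insig1, itself an SREBP target, had −0.27 ± 0.16 (edgeR adjusted p = 0.233) and Insig2 had −0.12 ± 0.06 (edgeR adjusted p = 0.159).

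Genes that move and store cholesterol behaved less uniformly. Npc1, the lysosomal cholesterol exporter gene, had 71.3, 75.4, 78.9, 73.3 and 73.1 CPM in WWv, against 66.4, 66.8, 68.1, 66.8 and 66.2 CPM in WT. Every WWv library was above every WT library, by a small amount (1.11-fold higher, 0.16 ± 0.04, edgeR adjusted p = 0.0136). Npc1 was not called with library size only (0.07, edgeR adjusted p = 0.196). Its soluble partner Npc2 had the highest level per transcript length of the set, 33.7 RPKM (CPM per kilobase of exon) in WWv and 35.2 RPKM in WT, and did not pass (−0.06 ± 0.05, edgeR adjusted p = 0.386). On the same length-corrected scale Fdps was at 0.323 RPKM in WWv and 0.624 RPKM in WT.

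Mylip encodes the ubiquitin ligase that removes lipoprotein receptors and is induced through liver X receptors, the nuclear sensors of oxysterols. It had 6.48, 7.38, 8.13, 7.32 and 9.36 CPM in WWv, against 11.8, 6.73, 10.0, 20.5 and 14.3 CPM in WT. WT 2 lay within the WWv range and WT 4 far above it, and Mylip did not pass (−0.71 ± 0.25, edgeR adjusted p = 0.051), but did without WT 2 (−0.87, edgeR adjusted p = 0.0034). Soat1, which esterifies cholesterol for storage, averaged 117 ± 6.02 CPM in WWv and 104 ± 16.6 CPM in WT (0.18 ± 0.09, edgeR adjusted p = 0.184). Without WT 2 it passed, higher in WWv (0.28, edgeR adjusted p = 0.00273). Stard4, a cytosolic sterol carrier gene, averaged 25.0 ± 2.04 CPM in WWv and 29.9 ± 3.73 CPM in WT. It missed the threshold (−0.26 ± 0.09, edgeR adjusted p = 0.055) but passed without WT 2 (−0.31, edgeR adjusted p = 0.00513).

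**Figure D3:**
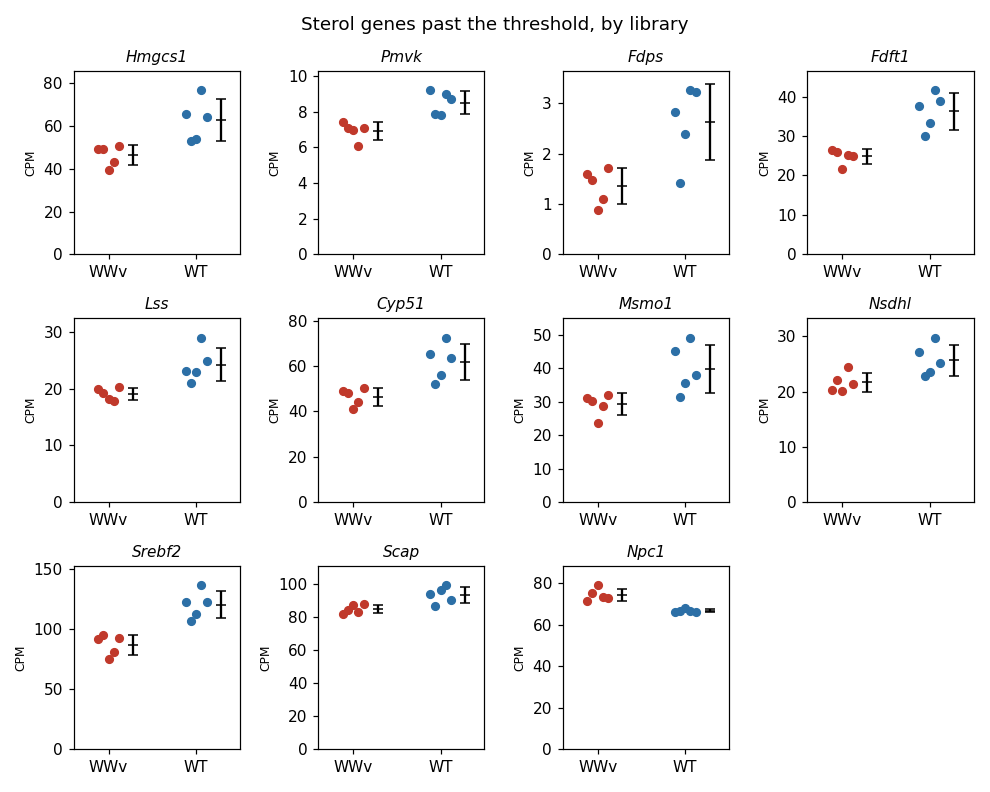
CPM of each gene that passed the test, in every library, WWv left of WT; points are libraries and bars the group mean and SD (n = 5 each). WT 2 is the library nearest the WWv values for most genes, and Npc1 is the 1 gene with WWv above WT.

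The same libraries were often the lowest or highest of their group over these genes. Among WWv libraries WWv 3 was the lowest in 14 of the 28 genes and WWv 5 the highest in 15. Among WT libraries WT 2 was the lowest in 19 and WT 4 the highest in 22, and WT 2 lay inside the WWv range for 14. The coefficient of variation was larger in WT than in WWv for 25 of the 28 genes, with medians of 7.91% in WWv and 12.9% in WT, against medians of 8.70% in WWv and 12.9% in WT over all genes tested. Summed over the 19 enzymes the level was 454 ± 27.5 CPM in WWv (414 to 488) and 540 ± 79.6 CPM in WT (436 to 646). The lowest WT sum was that of WT 2, and the other 4 WT libraries ran from 493 to 646 CPM, above all WWv libraries.

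**Figure D4:**
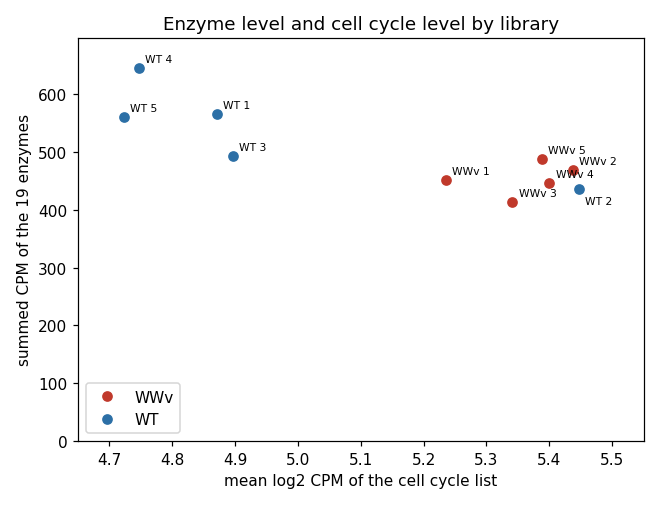
Summed CPM of the 19 enzyme genes against the mean log2 CPM of 28 cell cycle genes, 1 point per library, WWv and WT marked apart. WWv libraries and WT 2 lie at 5.24 to 5.45 on the cell cycle axis and the other WT libraries at 4.72 to 4.90, with higher enzyme sums.

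Cell cycle level was thus higher, and the enzyme sums lower, in WWv and WT 2 than in the other WT libraries. Genotype and cell cycle cannot be told apart outside WT 2. Of the 28 cell cycle genes 13 were higher in WWv and 27 without WT 2, against 12.8% and 22.7% of all genes in these fits. None of the 28 was lower in either edgeR fit, at an unadjusted p under 0.05 either. With the cell cycle covariate Srebf2 was at −0.33 (edgeR adjusted p = 0.0761) and Fdft1 at −0.30 (edgeR adjusted p = 0.072). The 1 gene called in that fit was Ggps1, higher in WWv (0.44, edgeR adjusted p = 0.0151). WT 2 had the lowest Ggps1 level, 31.8 CPM. The other WT libraries had 39.3 to 44.5 CPM and WWv had 43.6 to 48.0 CPM. Without WT 2 and without the covariate Ggps1 did not pass (0.10, edgeR adjusted p = 0.126). Hypoxia and glycolysis genes also moved with the group: 12 of 17 were lower in WWv, against 15.4% of all genes tested. Their sum was 4326 to 4768 CPM in WWv and 5500 to 6407 CPM in WT. The part of either list in the sterol result was not tested beyond the covariate fit.

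The other arm of SREBP control, fatty acid and phospholipid synthesis, had 5 lower and 0 higher genes among 14, with a median of −0.23. Of all genes tested 15.4% were lower and 12.8% higher. At an unadjusted p under 0.05, 1 of the 14 was higher by each of edgeR, limma-voom and DESeq2. At an adjusted p under 0.05, 0 were higher by limma-voom and 1 by DESeq2. The lower genes included Gpam, the first acyltransferase of glycerolipid synthesis (−0.52 ± 0.13, edgeR adjusted p = 0.0122), and Acss2, which makes acetyl-CoA from acetate (−0.52 ± 0.14, edgeR adjusted p = 0.0175). Fads2, the delta-6 desaturase gene (−0.39, edgeR adjusted p = 0.00789), and the phosphatidate phosphatase gene Lpin1 (−0.28, edgeR adjusted p = 0.0236) also fell, as did the desaturase gene Fads1 (−0.24, edgeR adjusted p = 0.024), named after its value was seen. Without WT 2 the list had 5 lower and 3 higher genes, against 23.5% lower and 22.7% higher of all genes in that fit. With the cell cycle covariate edgeR called none, with 2 lower and 0 higher at an unadjusted p under 0.05. The covariate fit called 3.97% of all genes lower and 5.33% higher.

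Genes of protein prenylation and its later steps and of dolichol and ubiquinone synthesis had 5 higher and 0 lower members of 15, with a median of 0.11. Of all genes tested 12.8% were higher and 15.4% lower. None of the 15 was lower at an unadjusted p under 0.05 in edgeR, by limma-voom or by DESeq2. Icmt, which methylates prenylated proteins, rose most (0.36 ± 0.05, edgeR adjusted p = 0.000651). Fntb, a farnesyltransferase subunit gene (0.24), Nus1 of dolichol synthesis (0.20) and the prelamin protease gene Zmpste24 (0.19) rose as well, as did Rabggtb (0.19), a subunit gene of the transferase for Rab proteins, named after its value was seen. Genes of SREBP processing and Insig turnover had 5 higher and 0 lower of 12, with a median of 0.15. At an unadjusted p under 0.05, 1 was lower by edgeR, 1 by DESeq2 and 0 by limma-voom. At an adjusted p under 0.05 none was lower by any of these tools. The higher genes included Erlin1 (0.27), Fbxw7 (0.23), Rnf145 (0.22) and, named after its value was seen, Nploc4 (0.17). These 2 higher directions depend on the scaling: with library size only, 1 gene of the first list was higher and 1 lower, and of the second 1 was higher and 2 lower. That scaling called 6.48% of all genes higher and 23.7% lower. Without WT 2 the first list had 6 higher and the second 8 higher and 1 lower, and with the cell cycle covariate each had 1 higher. Of all genes 22.7% were higher and 23.5% lower without WT 2, and 5.33% and 3.97% with the covariate.

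A further list held 12 genes of liver X receptors and their partners, their targets, sterol export and oxysterol metabolism. In it 4 were lower and 1 higher, with a median of −0.16. Apoe, the lipoprotein gene that carries exported cholesterol, fell by 1.47 on the log2 scale (edgeR adjusted p = 0.000388). Cyp7b1, an oxysterol hydroxylase gene, fell by 2.54 on that scale (edgeR adjusted p = 0.00324). Its level was low, at 0.247 to 0.706 CPM in WWv, from 11 to 37 counts. WT 2 was at 0.733 CPM, close to WWv, and the other WT libraries were at 2.05 to 4.89 CPM. Cyp27a1, the sterol 27-hydroxylase gene, fell by 0.69 (edgeR adjusted p = 0.0439), and Lpcat3 of phospholipid remodelling fell by 0.47 (edgeR adjusted p = 0.000818). The cholesterol exporter gene Abca1, named after its value was seen, rose (0.38 ± 0.11, edgeR adjusted p = 0.0277), so members of this list changed in both directions. Without WT 2 the counts were 6 lower and 1 higher, and with the cell cycle covariate 2 lower and 0 higher, with 3 higher at an unadjusted p under 0.05 in edgeR. Of 16 further genes of sterol transport and regulation 1 was lower and 3 were higher. Their median of 0.03 became −0.06 with library size only. Beside this list and the one before it, 15.4% of all genes tested were lower and 12.8% higher. Gramd1c, a sterol transfer gene, was lower (−0.79). Nceh1, a cholesteryl ester hydrolase gene (0.36), Nfya, a subunit of the CCAAT-binding factor NF-Y (0.34), and Lbr, a sterol C14 reductase gene (0.24), were higher. Without WT 2 the transport list had 3 lower and 4 higher genes, and with the cell cycle covariate 1 higher. Of all genes 23.5% were lower and 22.7% higher without WT 2, and 3.97% and 5.33% with the covariate.

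**Figure D5:**
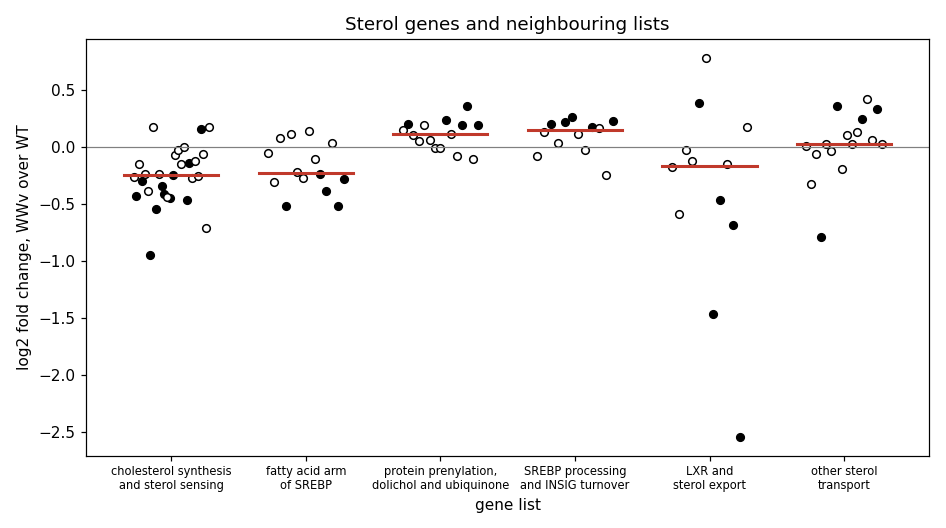
Log2 fold change (WWv over WT) of every tested gene in the 28-gene set and in 5 neighbouring lists, filled where the edgeR adjusted p was under 0.05, with the median of each list. Medians run from −0.25 for the 28 genes and −0.23 for the fatty acid arm to 0.11 for prenylation, dolichol and ubiquinone genes and 0.15 for SREBP processing.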

How the data were processed

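The authors deposited raw counts for each Ensembl gene in each library. The submitters' processing notes name bcl2fastq 2.17, Trim Galore 0.4.3, STAR 2.5.2a and the build mm10. How reads were assigned to genes, with which strand setting and which annotation, is not given in the sources used here. Per the labels, RNA was prepared with a column kit and made into poly(A) libraries. Reads of a gene and of an overlapping antisense gene can therefore not be told apart here. Gene names and coordinates came from GENCODE M21 (54409 of 54446 IDs matched) and promoters from RefSeq on GRCm38.p6. Genes were kept by filterByExpr with a minimum count of 10 and scaled by TMM, and the 5 WWv libraries were tested against the 5 WT libraries with edgeR 4.0.16 in R 4.3.3 (quasi-likelihood test, Benjamini-Hochberg adjustment over all 15181 genes, threshold 0.05). CPM use the same TMM factors, and RPKM divide by the union of exons. Alternatives were other scalings and filters, limma-voom 3.58.1, DESeq2 1.42.0, a replicate block, a cell cycle covariate and libraries left out. The deposited libraries hold at least 42040255 counts each, and the lowest count behind a value of the 28 genes was 37, for Fdps in WWv 3. The 28 genes, the other lists and the tests were chosen with earlier results of these data known. All 28 genes are named, with values in every library for those that passed and for Acat2, Sqle and Mylip. From each neighbouring list up to 4 passing genes with the largest change are named. To these 1 each was added from 4 lists, marked in the text as named after its value was seen. The value of 1 gene that this rule would name is not reported here.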

Additional observations from a re-analysis of the deposited data

Results flagged for a closer look

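In 52 named genes, that is 104 groups of 5 libraries, 1 library stood apart from the other 4 by Dixon's criterion in 8 groups, and chance alone gives about 1 in 20. In WWv the low libraries were WWv 3 for Mvd (7.87 CPM, others 8.96 to 9.36) and Fads2 (26.2 CPM, others 28.4 to 29.1), WWv 1 for Ebp (15.0 CPM, others 16.8 to 17.2), and WWv 5 for Npc2 (164.5 CPM, others 184 to 191) and Fads1 (77.1 CPM, others 82.2 to 84.1). In WT all 3 were WT 2: it was high for Fntb (21.4 CPM, others 18.2 to 19.03) and Lbr (33.7 CPM, others 25.5 to 27.7) and low for Cyp27a1 (0.604 CPM, others 1.16 to 1.39).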

How the results depend on the processing

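Over the 28 genes the count of lower calls was 10 and of higher calls 1. It was 17 lower and 0 higher with library size only, 17 and 2 with voom quality weights, 17 and 2 without WT 2 and WWv 1, 0 lower with the cell cycle covariate, and 0 higher with no low-count filter (edgeR). Leaving out 1 library at a time gave 7 to 17 lower and 1 to 2 higher. Over all genes these settings gave 3599 lower and 983 higher (library size only), 3806 and 3595 (voom quality weights), 3750 and 3361 (without WT 2 and WWv 1), and 602 and 809 (covariate), against 2334 and 1940. Leaving out 1 library gave 1721 to 3620 lower and 1286 to 3507 higher, the highest of both without WT 2. Library size only moved the median of all genes to −0.09 and the share of calls that were higher to 21.5%, against 45.4%. The covariate reversed genes that had not passed: Sqle 0.46, Tm7sf2 0.25, Hsd17b7 0.063, Ebp 0.034, Sc5d 0.14, Insig1 0.15, Mylip 0.069 and Soat1 −0.09. Dhcr7 was 0.039 with voom quality weights and 0.020 without WT 2 and WWv 1, and ran from −0.060 to 0.071 over single libraries left out, as Ebp ran from −0.062 to 0.0085. The cause of these changes was not tested. Same-numbered libraries correlated at −0.092 to 0.308, and 0 of 5 WWv libraries matched their own number best, so the numbers were not read as a pairing; the replicate block gave 10 lower and 1 higher of the 28, gaining Acat2 and Mvd and losing Pmvk and Scap, and 1943 lower and 1693 higher of all genes.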
